A study of Homo sapiens with 15 samples.

Results

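Distal sites at which HIF2α was detected in control cells but not called after depletion of BMAL1, and at which BMAL1 itself was not called, were examined in 786-O cells, an established line of clear cell renal cell carcinoma. They were chosen from the lists of called peaks. A peak of the shControl HIF2α list was taken when it shared no base pair with a shControl BMAL1 peak or with a shBMAL1 HIF2α peak, and when its midpoint lay outside the region from 1000 bp upstream to 100 bp downstream of every annotated transcription start site. The rule took 273 of 1204 shControl HIF2α peaks, out of 4873 peaks in all 4 lists, and these are termed lost peaks. In the whole list 42.3% of peaks had no shBMAL1 HIF2α peak over them. Occupancy was measured by CUT&RUN, in which an antibody directs a nuclease to chromatin and the released DNA is sequenced, with 100000 cells per reaction. Cells carried a lentiviral shRNA with a control sequence (shControl) or against BMAL1 (shBMAL1), and each HIF2α list was pooled by the authors from 3 libraries. The shControl BMAL1 list was pooled from 3 libraries and the shBMAL1 BMAL1 list from 2, and 4 IgG libraries had no peak list. With 1 pooled list per group there is no error between libraries, and the peaks are the units of the tests between classes of peaks. In the tests against flanking windows the windows are the units, 2 flanks to each peak. The pairing of a summit with its own flanks was not used there. A lost peak is one over which the deposited shBMAL1 HIF2α list held no peak, and signal too low for that list may remain there.

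HIF2α is the oxygen-regulated subunit of a heterodimer with ARNT, which binds hypoxia response elements (HREs) and activates genes of angiogenesis, metabolism and growth. In clear cell renal carcinoma the loss of the VHL ubiquitin ligase leaves HIF2α stable in the presence of oxygen, and much of its binding is at enhancers far from start sites. BMAL1 is a subunit of the circadian clock, belongs to the same bHLH-PAS family as ARNT, and binds E-boxes with CLOCK. The HRE core (ACGTG or GCGTG on either strand) is contained in the E-box CACGTG, so that every window with an E-box also counts as a window with an HRE core. AP-1, a family of JUN and FOS dimers, occupies TGAGTCA or TGACTCA at many enhancers.

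Windows of 200 bp centred on the summit were read on the plus strand of hg19. Capitals mark an HRE core with the base before it, an E-box, or an AP-1 site, and a match on the minus strand appears as its reverse complement, such as CACGTT for AACGTG. The first set shows the lost peaks of smallest p with an HRE core, apart from the peak near OXR1, which ranked above them and is not shown, because this element was the only one of 12 motifs whose share differed between lost and retained peaks. They lay in an intron of TSPAN2, in an intron of a non-coding gene near ZNF318, between genes near SOST and in an intron of U2SURP. The match in the window near ZNF318 includes an E-box close to its right end.
TSPAN2 (chr1:115599242-115599441): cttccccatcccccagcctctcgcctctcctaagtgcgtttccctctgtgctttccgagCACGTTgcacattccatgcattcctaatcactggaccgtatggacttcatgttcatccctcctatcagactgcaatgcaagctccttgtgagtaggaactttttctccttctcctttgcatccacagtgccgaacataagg
ZNF318 (chr6:43351604-43351803): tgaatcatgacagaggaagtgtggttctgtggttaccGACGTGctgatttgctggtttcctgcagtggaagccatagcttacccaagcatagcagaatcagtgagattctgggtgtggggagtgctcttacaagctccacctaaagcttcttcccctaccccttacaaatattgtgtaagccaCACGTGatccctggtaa
SOST (chr17:41801494-41801693): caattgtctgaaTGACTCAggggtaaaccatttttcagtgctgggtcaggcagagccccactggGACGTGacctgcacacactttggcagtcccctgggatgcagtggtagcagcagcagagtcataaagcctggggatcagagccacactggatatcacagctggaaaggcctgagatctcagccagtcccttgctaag
U2SURP (chr3:142695605-142695804): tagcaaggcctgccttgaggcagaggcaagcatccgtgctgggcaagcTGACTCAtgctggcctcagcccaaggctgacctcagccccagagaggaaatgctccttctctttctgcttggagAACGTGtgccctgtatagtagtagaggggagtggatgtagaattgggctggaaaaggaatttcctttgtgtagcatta

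Lost peaks with an E-box are shown next, because this is the element of the factor that was depleted. They lay between genes 44630 bp from a COL5A1 start, in an intron of the non-coding gene GPR84-AS1 near ITGA5, and in an intron of TRIO. The window in TRIO also held an AP-1 site.
COL5A1 (chr9:137488919-137489118): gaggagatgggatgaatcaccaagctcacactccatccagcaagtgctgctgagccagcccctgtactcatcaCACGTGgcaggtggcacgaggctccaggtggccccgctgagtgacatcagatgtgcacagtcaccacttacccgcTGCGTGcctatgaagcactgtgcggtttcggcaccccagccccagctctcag
ITGA5 (chr12:54826270-54826469): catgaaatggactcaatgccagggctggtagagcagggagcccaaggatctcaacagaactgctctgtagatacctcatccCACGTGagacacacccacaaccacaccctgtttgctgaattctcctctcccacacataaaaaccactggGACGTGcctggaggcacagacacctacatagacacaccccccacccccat
TRIO (chr5:14305247-14305446): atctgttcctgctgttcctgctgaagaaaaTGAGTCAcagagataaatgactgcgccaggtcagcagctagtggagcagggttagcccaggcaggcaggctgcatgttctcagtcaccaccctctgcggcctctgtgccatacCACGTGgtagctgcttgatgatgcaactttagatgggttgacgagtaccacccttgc

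Lost peaks with an AP-1 site and without an HRE core represent the 37 of 273 windows (13.6%) of this kind. They are named by the nearest protein-coding gene and lay in an intron of a non-coding gene, between genes, and in an intron of a non-coding gene, in that order.
TMEM184C (chr4:148499238-148499437): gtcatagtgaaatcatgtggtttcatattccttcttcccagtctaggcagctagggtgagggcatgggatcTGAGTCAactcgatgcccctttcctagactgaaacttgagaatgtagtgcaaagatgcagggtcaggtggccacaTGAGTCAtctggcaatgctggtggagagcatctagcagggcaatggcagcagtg
COPS8 (chr2:237784587-237784786): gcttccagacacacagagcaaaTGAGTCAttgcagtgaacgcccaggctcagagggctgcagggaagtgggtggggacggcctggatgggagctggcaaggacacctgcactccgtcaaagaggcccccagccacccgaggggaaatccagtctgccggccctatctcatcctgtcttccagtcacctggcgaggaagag
LRP4 (chr11:46942420-46942619): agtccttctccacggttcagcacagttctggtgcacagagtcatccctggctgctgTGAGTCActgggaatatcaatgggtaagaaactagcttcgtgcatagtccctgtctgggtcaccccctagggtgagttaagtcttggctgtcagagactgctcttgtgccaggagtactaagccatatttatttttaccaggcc

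None of the 12 motifs was present in 23 of 273 windows. The strongest of these that could be shown lay in an intron of AHRR and between genes near C1D, and both hold runs of alternating pyrimidine and purine. A run of 12 bases of alternating C and A on either strand, counted after these windows were read, was present in 7 of 273 lost windows (2.56%), in 2 of 380 retained windows (0.526%), in 11 of 278 windows of distal peaks called only in shBMAL1 cells (3.96%) and in 5 of 546 flanking windows of lost peaks (0.916%).
AHRR (chr5:344606-344805): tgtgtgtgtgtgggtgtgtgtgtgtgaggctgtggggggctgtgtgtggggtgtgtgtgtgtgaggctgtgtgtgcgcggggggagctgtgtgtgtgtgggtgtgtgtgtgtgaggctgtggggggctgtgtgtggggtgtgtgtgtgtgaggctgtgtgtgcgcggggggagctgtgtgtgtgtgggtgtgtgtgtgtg
C1D (chr2:68180928-68181127): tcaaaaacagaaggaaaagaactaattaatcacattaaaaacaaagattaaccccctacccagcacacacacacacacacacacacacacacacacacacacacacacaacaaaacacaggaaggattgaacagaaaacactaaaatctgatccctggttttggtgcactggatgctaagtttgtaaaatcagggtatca

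For comparison, the retained peaks of smallest p near TGFA, which encodes an EGFR ligand, and in a region of chromosome 9 nearest to the unnamed gene ENSG00000285082 are given. Their fold enrichment was 25.3 and 27.1, against at most 12.6 in any lost peak.
TGFA (chr2:70823884-70824083): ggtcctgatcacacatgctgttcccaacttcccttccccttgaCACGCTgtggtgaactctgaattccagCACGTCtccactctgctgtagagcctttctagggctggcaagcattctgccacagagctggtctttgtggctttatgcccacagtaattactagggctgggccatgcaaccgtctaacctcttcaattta
ENSG00000285082 (chr9:121094099-121094298): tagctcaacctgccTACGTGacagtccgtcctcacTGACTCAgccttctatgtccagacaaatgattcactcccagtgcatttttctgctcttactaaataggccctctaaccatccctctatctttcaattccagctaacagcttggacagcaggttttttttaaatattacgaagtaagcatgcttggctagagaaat

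The strength of a peak was part of what chose the members, so the following values are a description without a test. Of 653 HIF2α-only distal peaks, 273 were lost (41.8%, 95% Wilson interval 38.1% to 45.6%, which covers counting error over peaks only), against 42.3% of the whole shControl HIF2α list. The share was 47.9% for HIF2α-only promoter peaks (103 of 215). Among peaks that overlapped a shControl BMAL1 peak it was 35.2% for distal peaks (80 of 227) and 48.6% for promoter peaks (53 of 109). Fold enrichment over the local background ranged from 2.87 to 12.6 in lost peaks with a median of 6.59, and its median was 8.38 in the 380 retained HIF2α-only distal peaks. The −log10 p ranged from 8.90 to 41.1 with a median of 16.2, against a median of 25.1 in retained peaks, and the median width was 177 bp against 235 bp. The groups overlapped widely in all 3 measures. The strongest lost peak ranked 152 in the list by p. When the list was divided into quintiles by p, the number of lost peaks was 6, 28, 68, 87 and 84 from the strongest quintile to the weakest, which is 5.04%, 20.6%, 44.7%, 67.4% and 71.8% of the HIF2α-only distal peaks in each.

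**Figure D1:**
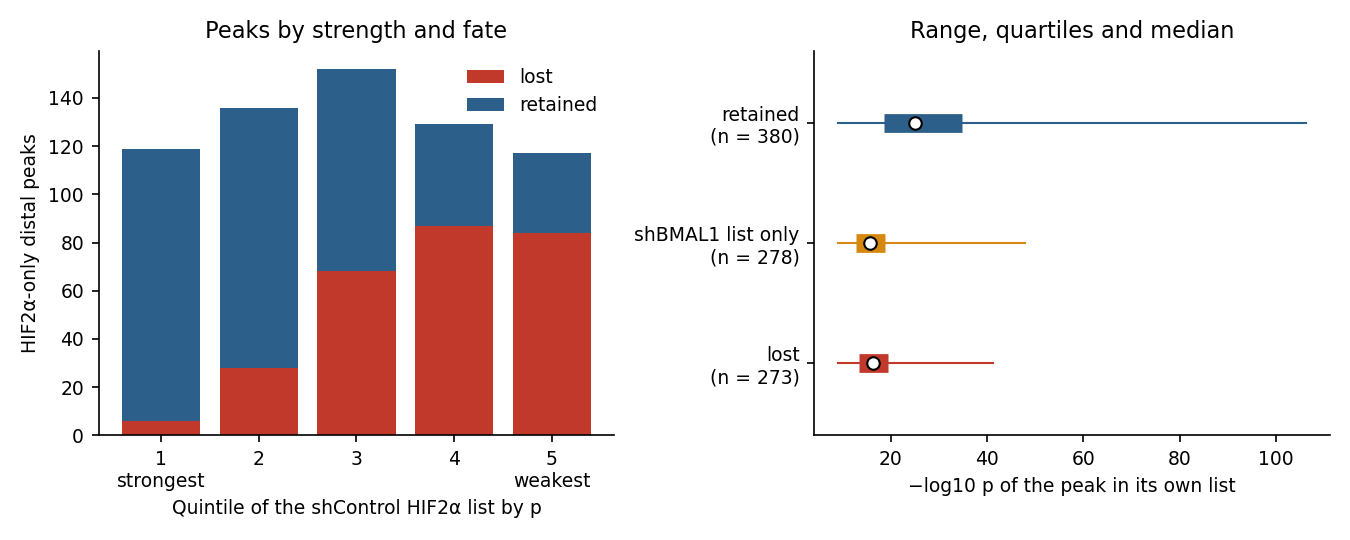
Left, number of lost and retained HIF2α-only distal peaks (bars stacked to their sum) in quintiles of the shControl HIF2α list by p. Right, −log10 p of lost, retained and shBMAL1-only distal peaks, each in its own list, with the range (thin line), the quartiles (thick line) and the median (circle). Lost peaks number 6 in the strongest quintile and 84 in the weakest, and their median of 16.2 lies next to that of 15.7 for peaks called only in shBMAL1 cells.

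The same rule applied in the other direction, to shBMAL1 HIF2α peaks without overlap with a shBMAL1 BMAL1 peak or a shControl HIF2α peak, gave 278 distal peaks called only in shBMAL1 cells. They came from a list of 1089 peaks, against 1204 for the lost peaks. The share of all shBMAL1 HIF2α peaks without a shControl HIF2α peak was not computed, so nothing is read from the count. The median −log10 p (15.7) and median width (175.5 bp) of the 278 peaks were close to those of the lost peaks, and their median fold enrichment was 7.16. Overlap with a shControl BMAL1 peak was not excluded for them, as it was for the lost peaks. Of the 278 peaks, 24 (8.63%) lay over or within 1000 bp of a shControl BMAL1 peak, against 4 of 273 lost peaks (1.47%). No test was made of these values, which come from the calls that define both classes.

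Peaks just inside and just outside the rule were as follows. The lost peaks nearest to a shBMAL1 HIF2α peak lay 404 bp (MAP9), 480 bp (MYC) and 525 bp (CDCP1) from it, and 9 lost peaks lay within 1000 bp of such a peak. The retained peaks of smallest overlap shared 18 bp (LGALSL), 36 bp (TBXAS1) and 61 bp (EMP2) with the shBMAL1 peak, while the median overlap of the 380 retained peaks was 90.6% of the shControl peak. The lost peaks nearest to a shControl BMAL1 peak were at DNAJB12, NENF and NDST1, from 617 to 861 bp away. At the promoter border, the midpoints at MICAL2, CITED2 and LRP4 lay 1, 3 and 14 bp outside the promoter region.

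The first question put to the sequences was whether the lost peaks carried the elements of HIF2α and of enhancers. The HRE core was present in 172 of 273 windows (63.0%, 57.1% to 68.5%) and in 119 of 546 windows placed 2000 bp to each side (21.8%), 41.2 percentage points more (34.3 to 47.6; adjusted p = 1.21e-29 over the 12 motifs by Fisher's exact test, two-sided here and throughout). The AP-1 site was present in 88 windows (32.2%) against 20 flanking windows (3.66%; adjusted p = 9.06e-28 by the exact test). Both elements occurred together in 51 windows (18.7%), and 64 windows (23.4%) had neither. Shares above the flanks were also found for the TEAD element CATTCC (20.1% against 8.24%, adjusted p = 9.60e-06), for the RUNX element TGTGGTT (11.7% against 4.03%, adjusted p = 0.000211) and for the antioxidant response element TGACNNNGC (15.0% against 6.41%, adjusted p = 0.000260), by the same exact test. TEAD proteins are the DNA-binding partners of YAP and TAZ, RUNX proteins are lineage factors, and the antioxidant response element is bound by NRF2 with small MAF proteins. An AP-1 site TGACTCA followed by GC also matches TGACNNNGC, so the shares of these elements are not independent. Windows that match TGACNNNGC only through an AP-1 site are included in its share, and their number was not determined. An E-box lay in 12 windows (4.40%) and in 9 flanking windows (1.65%), 2.75 percentage points more (0.38 to 5.97), which was not past the threshold over the 12 motifs (adjusted p = 0.0636 by Fisher's exact test, and from 0.0260 to 0.567 over the alternatives). The ETS element CCGGAA, the cAMP response element TGACGTCA, the GC box GGGCGG, the CCAAT box, the FOX element (TGTTTAC or TGTTTGC) and the HNF1 element GTTAATNAT were not past the threshold either, with adjusted p from 0.0767 to 0.542 in the exact tests. In the whole shControl HIF2α list the HRE core was present in 70.8% of windows and the AP-1 site in 27.5%.

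**Figure D2:**
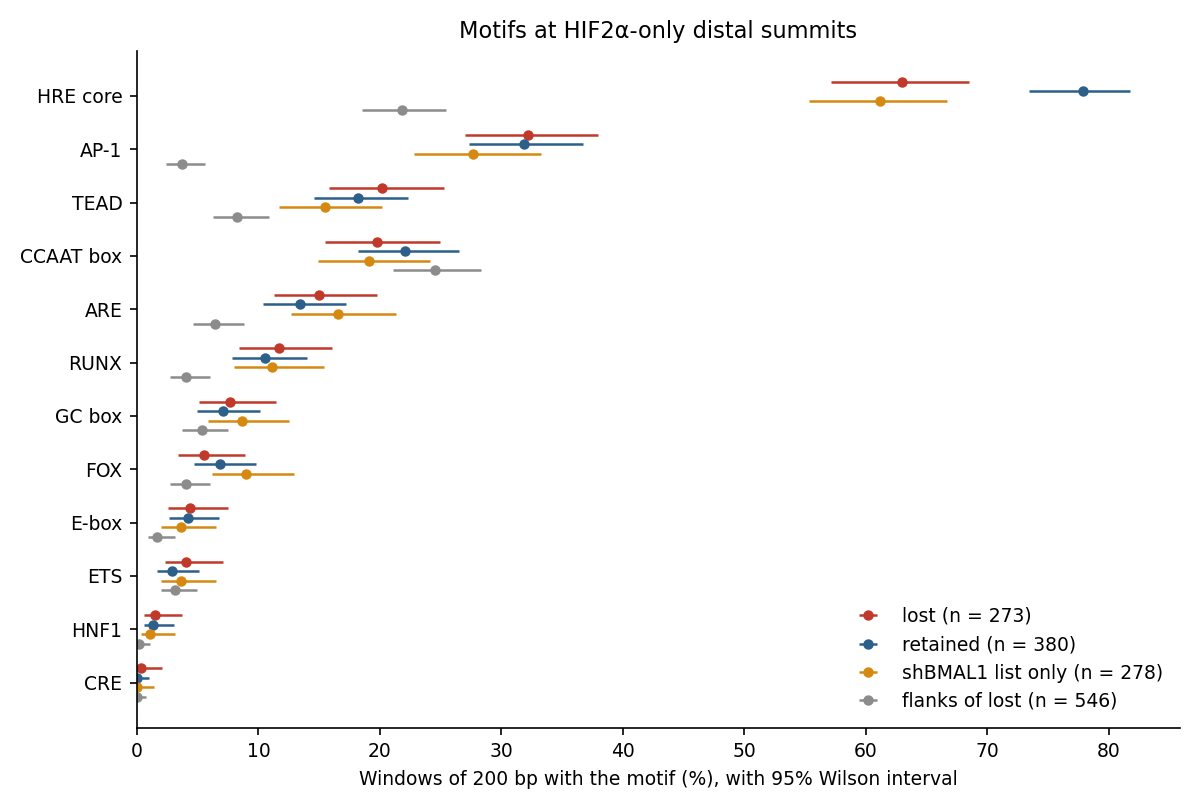
Share of 200 bp windows with each of 12 motifs, with its 95% Wilson interval, at the summits of lost, retained and shBMAL1-only distal HIF2α peaks and in the flanking windows of lost peaks. The HRE core is at 63.0% in lost, 77.9% in retained and 61.2% in shBMAL1-only windows against 21.8% in flanks, while the points of the 3 peak classes lie close together for the other motifs.

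Lost and retained peaks were then compared. The HRE core was present in 63.0% of lost and in 77.9% of retained windows (296 of 380), and the difference of -14.9 points in percent (-21.9 to -7.82) was past the threshold (adjusted p = 0.000573 over the 12 motifs by Fisher's exact test). It was the only motif past the threshold. The AP-1 share was 32.2% in lost and 31.8% in retained windows, 0.39 percentage points apart (-6.76 to 7.69; adjusted p = 1 by the exact test). The E-box share was 4.40% in lost and 4.21% in retained windows (16 of 380), 0.19 percentage points apart (-2.95 to 3.70; adjusted p = 1 by the exact test).

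The HRE core was next divided by the base before it, since HIF dimers and clock dimers are known to differ in their preference at this position. TACGTG was present in 59 of 273 lost windows (21.6%) and in 158 of 380 retained windows (41.6%), which differ by -19.97 percentage points (-26.7 to -12.8; adjusted p = 7.58e-07 over the 8 hexamers by Fisher's exact test). The other 7 hexamers did not differ past the threshold. GACGTG was present in 18.7% of lost and 21.1% of retained windows, AACGTG in 9.52% and 10.5%, and TGCGTG in 10.3% and 13.2% (adjusted p from 0.978 to 1 in the exact tests). In lost windows TACGTG was still above the flanks (21.6% against 1.83%), as was GACGTG (18.7% against 4.21%), with adjusted p = 7.20e-20 and 2.73e-10 by the exact test. In all, 6 of the 8 hexamers were past the threshold over the flanks. Among them was CACGTG, the E-box, with the same counts as above (adjusted p = 0.0424 over the 8 hexamers by the exact test). The call on the E-box over the flanks thus depended on the set of tests it was adjusted over. TACGTG was named after its value was seen.

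Peak strength moved with both differences. Within quintiles of p formed from the HIF2α-only distal peaks alone (n = 273 lost and n = 380 retained peaks) the HRE core differed by -8.27 percentage points (adjusted p = 0.273 by the Cochran-Mantel-Haenszel test) and TACGTG by -9.98 (adjusted p = 0.114), neither past the threshold. Within quintiles of GC content they were -14.9 and -19.7 percentage points, and within quintiles of peak width -13.4 and -19.0 percentage points, all 4 past the threshold. In windows of 100 bp at the summit the HRE core differed by -7.69 percentage points (adjusted p = 0.326 by the exact test).

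The matches lay to one side of the summit. In lost peaks an HRE core was found within the 100 bp before the summit, towards lower coordinates, in 129 of 273 peaks (47.3%), and within the 100 bp after it in 76 (27.8%). The shares were 63.7% and 30.0% in retained peaks and 47.5% and 22.3% in peaks called only in shBMAL1 cells. The AP-1 site showed the same side, with 23.1% before and 13.2% after the summit of lost peaks. In bins of 50 bp the HRE core was most frequent at 75 bp before the summit in each of the 3 classes, at 28.9% of lost, 41.6% of retained and 30.6% of shBMAL1-only peaks.

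**Figure D3:**
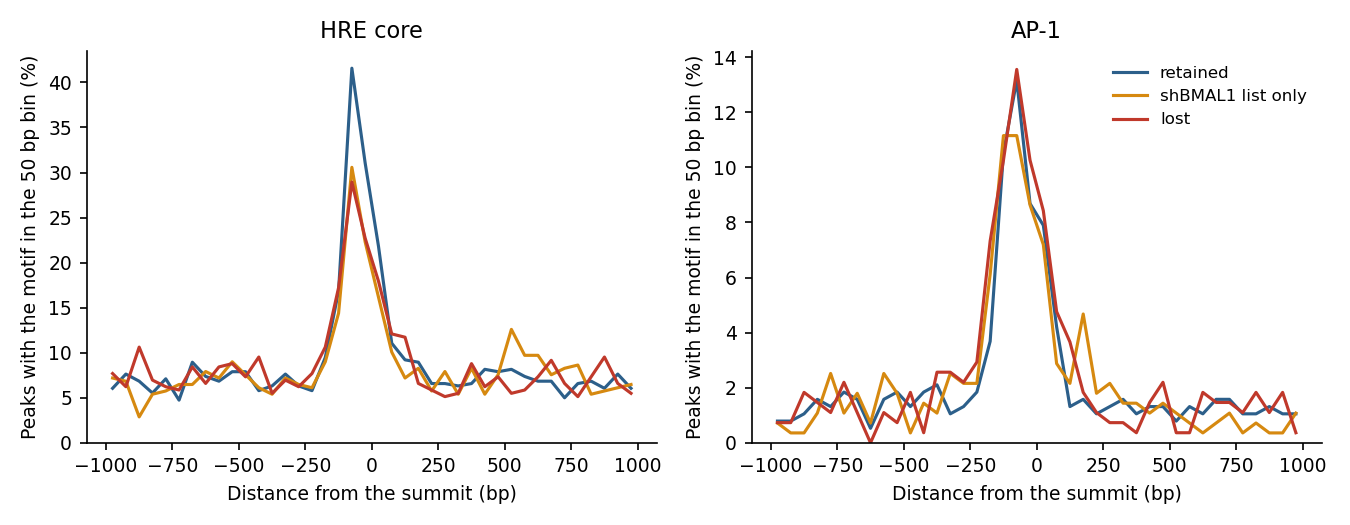
Share of peaks with an HRE core (left) or an AP-1 site (right) in bins of 50 bp by distance from the summit, in genome orientation, for lost, retained and shBMAL1-only distal HIF2α peaks. All curves are highest before the summit, and the HRE core reaches 41.6% of retained peaks against 28.9% of lost peaks at -75 bp.

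With the 200 bp window moved to 75 bp before the summit, an alternative chosen after this profile was seen, the HRE core was present in 181 of 273 lost windows (66.3%) and in 319 of 380 retained windows (83.9%), which differ by -17.6 percentage points (-24.3 to -11.0; adjusted p = 2.53e-06 by the exact test). TACGTG was present in 23.4% of lost and 46.6% of retained windows, which differ by -23.1 percentage points (-30.0 to -15.8; adjusted p = 8.25e-09 by the exact test). Within quintiles of p, for the same n = 273 and n = 380 peaks, these differences were -13.2 (adjusted p = 0.00840 by the Cochran-Mantel-Haenszel test) and -12.7 percentage points (adjusted p = 0.0191), both past the threshold. Both calls within quintiles of p thus depended on where the window was placed. The position of the window was chosen on the same peaks, at the place where the HRE core is most frequent in each class.

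By these quintiles of the 653 HIF2α-only distal peaks, in the moved window, the HRE core was present in 4 of 9 lost and 104 of 122 retained peaks of the strongest quintile, and in 25 of 26 lost and 87 of 104 retained peaks of the next. In the 3 weaker quintiles the share in lost peaks was 74.2%, 67.5% and 53.8%, and in retained peaks 87.0%, 80.9% and 78.9%. The direction was thus not the same in all quintiles. TACGTG was present in 0 of 9 lost peaks of the strongest quintile, which allows a share of up to 29.9% by the Wilson interval, and in 73 of 122 retained peaks (59.8%). Among peaks of p at or under 1e-20 only 62 lost peaks remained beside 256 retained peaks. There the HRE core differed by 0.96 percentage points at the summit and by -3.73 in the moved window, and TACGTG by -11.4 and -14.9 percentage points, none past the threshold (adjusted p from 0.230 to 1 in the exact tests).

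**Figure D4:**
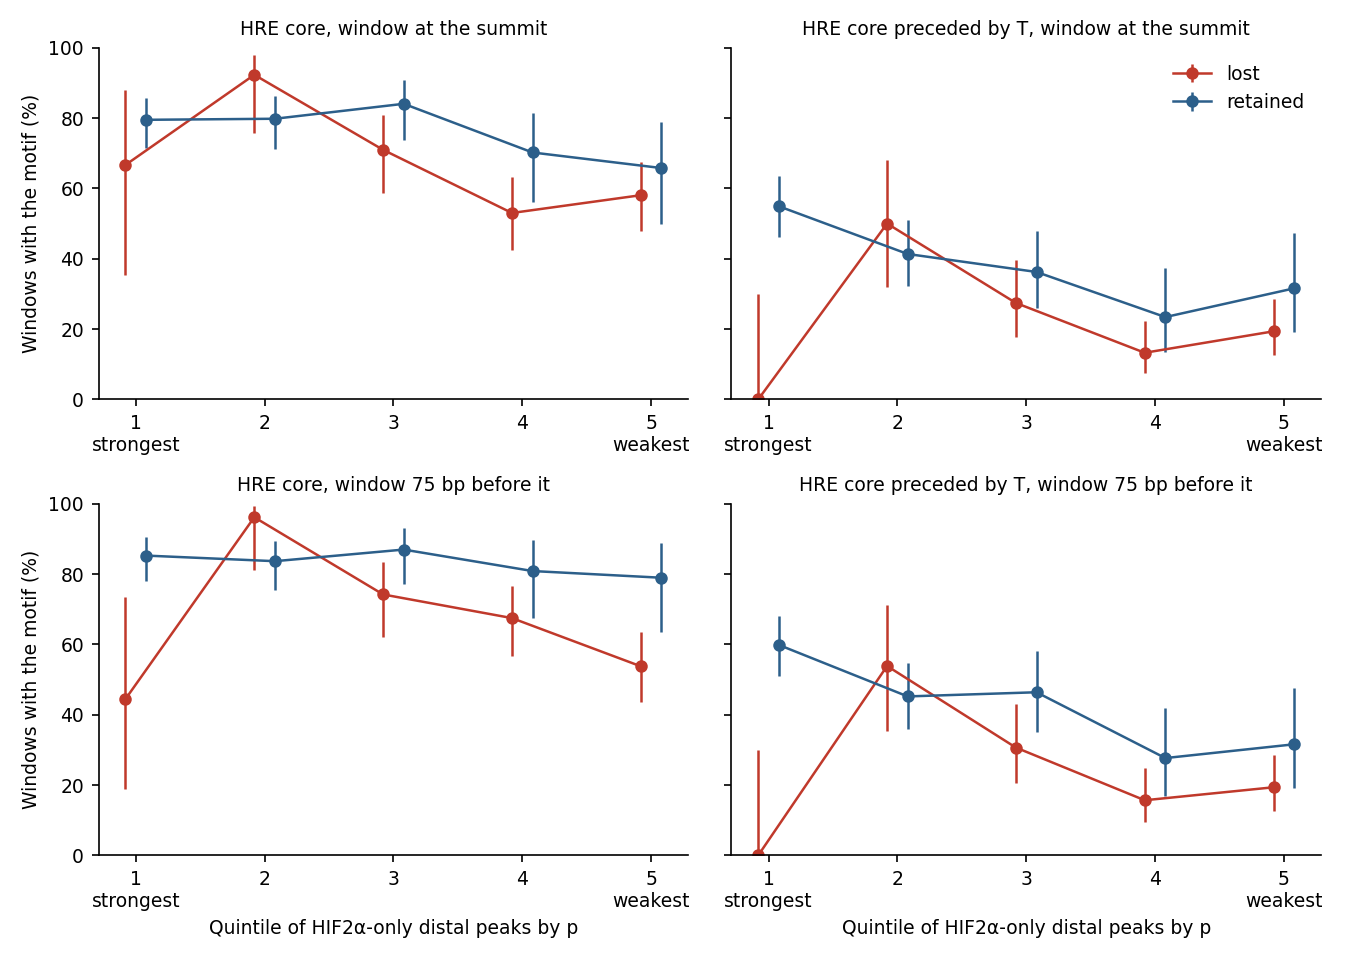
Share of windows with an HRE core (left) and with an HRE core preceded by T (right), with 95% Wilson intervals, in quintiles by p of the 653 HIF2α-only distal peaks, for lost and retained peaks. Upper row, window centred on the summit. Lower row, window centred 75 bp before it. Retained peaks are above lost peaks in each panel except in the quintile of second rank, where they are below them.

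Lost peaks were also set against the distal HIF2α peaks called only in shBMAL1 cells. The shares with an HRE core were 63.0% and 61.2%, 1.85 percentage points apart (-6.22 to 9.88; adjusted p = 0.914 by the exact test). The AP-1 share was 32.2% against 27.7%, which is 4.54 percentage points more (-3.10 to 12.1), the E-box count 12 of 273 against 10 of 278, and the share with TACGTG 21.6% against 24.8%, a difference of -3.21 (-10.2 to 3.85). By Fisher's exact test 0 of 12 motifs and 0 of 8 hexamers were past the threshold, and 0 of them had an unadjusted p under 0.05.

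None of 4 features of place and composition differed between lost and retained peaks past the threshold, though for GC content the test could not have shown a difference. Of 273 lost summits, 151 (55.3%) lay in introns of annotated genes, 95 (34.8%) between genes, 24 (8.79%) on non-coding exons or untranslated regions and 3 (1.10%) on coding exons. The intron share was 61.8% in retained peaks, a difference of -6.53 (-14.1 to 1.10) in percentage points (adjusted p = 0.426 over the 4 features by Fisher's exact test). The median distance to the nearest start site was 8220 bp in lost and 7609 bp in retained peaks (two-sided permutation test over peaks of the log10 distance, adjusted p = 0.883). From the nearest protein-coding start the medians were 28367 and 31067 bp, and 225 of 273 lost peaks (82.4%) lay over 5000 bp from such a start. GC content had a median of 50.5% in both classes. With equal medians the permutation test of their difference had to give its largest p, so it does not compare the classes. The quartiles were 46% and 56.5% in lost peaks and 46% and 55% in retained peaks. A shControl BMAL1 peak lay within 10 kb of 17 lost peaks (6.23%) and of 29 retained peaks (7.63%), which differ by -1.40 percentage points (-5.28 to 2.78; adjusted p = 0.883 by the exact test). Of the 273 lost peaks, 4 lay within 10 kb of another lost peak and 21 within 10 kb of a retained shControl HIF2α peak. These counts were not made for retained peaks. A shBMAL1 BMAL1 peak overlapped 1 lost peak, in an intron of RAI14. Chromosome 21 held 11 of the 273 lost peaks (4.03%) and 20 of the 1204 peaks of the list (1.66%), a count noticed after the values were seen and not tested.

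Lost peaks were assigned to 257 genes, by the gene body that held the summit or otherwise the nearest protein-coding start. A single lost peak was assigned to 241 of them and 2 lost peaks to 16, and no gene had 3 or more. Of the 257 genes, 41 also had a retained HIF2α-only distal peak. Genes with 2 lost peaks included CDCP1, a transmembrane substrate of SRC kinases, EDN2, an endothelin, and RUNX1, MYC and BHLHE40. Both BHLHE40 peaks and both MYC peaks lay outside the gene.

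Hypoxia genes were the largest of 8 gene lists. Of 34 HIF2α-only distal peaks at these genes 5 were lost (14.7%, 6.45% to 30.1%), beside 41.8% of all HIF2α-only distal peaks, and the retained ones had a median −log10 p of 25.9. Because the calls that chose the members also set this count and those of the lists that follow, nothing is read from any of them about a list. The 5 lost peaks were at 4 genes. At PLIN2, which encodes a coat protein of lipid droplets, a lost peak of fold enrichment 10.3 (chr9:19162968-19163240) lay near a retained peak of fold enrichment 10.1 (chr9:19161787-19162111), and their −log10 p was 26.0 and 25.7. Both were intergenic, 13818 and 12691 bp from a PLIN2 start. At ANGPTL4, which encodes an inhibitor of lipoprotein lipase, the lost peak had a fold enrichment of 6.10 (chr19:8432381-8432524), and the 2 retained peaks had 9.01 and 13.0. At IGFBP3, a binding protein of insulin-like growth factors, the lost peak (chr7:46259901-46260104, fold enrichment 8.39) was intergenic and 298507 bp from the nearest start of the gene, and the retained peak (chr7:46017787-46018236) had a fold enrichment of 11.1. Near MYC, which encodes a transcription factor of growth, lost peaks of fold enrichment 3.82 and 7.25 lay in the region of PVT1, 122282 and 138501 bp from the MYC start, among 3 retained peaks of 4.37 to 6.41. At all 4 genes at least 1 HIF2α-only distal peak was thus retained.

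**Figure D5:**
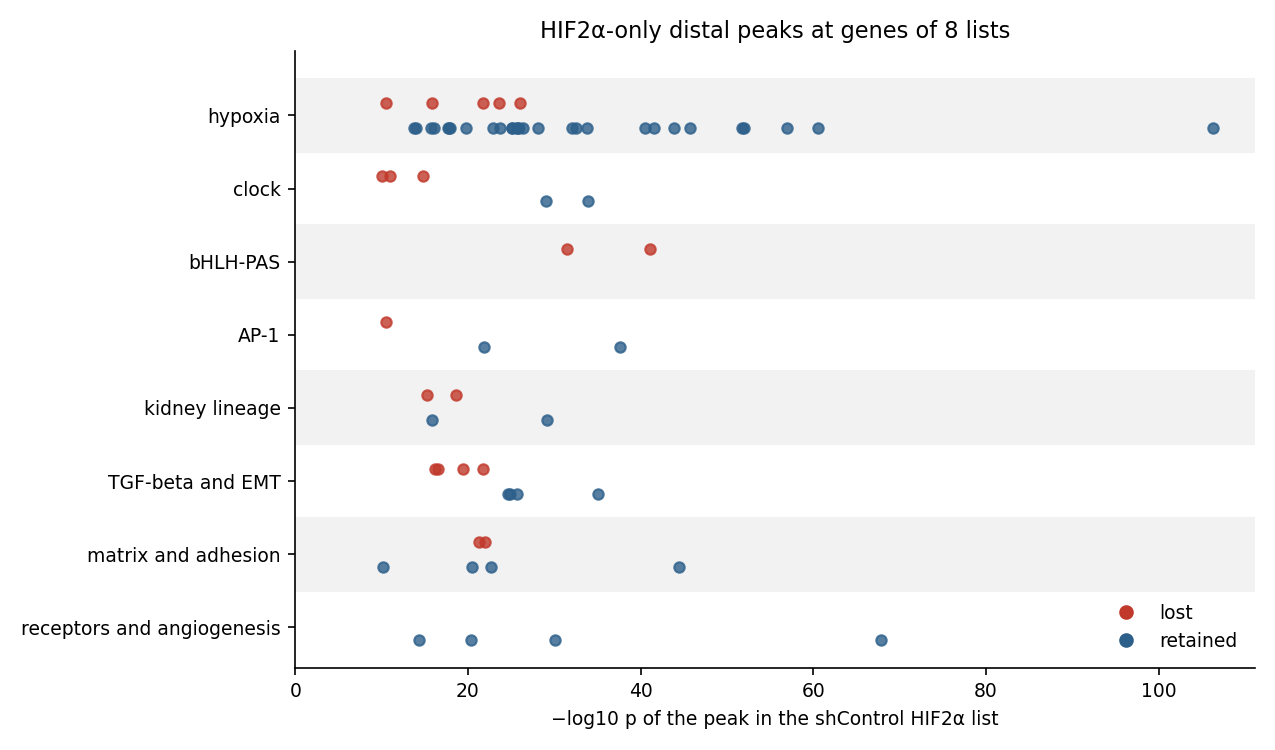
The −log10 p of each HIF2α-only distal peak at genes of 8 lists, with lost and retained peaks as points of 2 colours. Of 34 peaks at hypoxia genes 5 are lost, and both peaks at bHLH-PAS genes are lost, beside 41.8% of all HIF2α-only distal peaks.

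Clock genes had 5 HIF2α-only distal peaks, of which 3 were lost, a count too small to set apart from the 41.8% over all such peaks (23.1% to 88.2%). At PER1, a repressor of CLOCK and BMAL1, the lost peak (chr17:8042378-8042533) had a fold enrichment of 5.97, lay 6868 bp from the start and held none of the HRE core hexamers. At BHLHE40, which encodes the repressor DEC1 of the clock, lost peaks of fold enrichment 3.93 (chr3:5027754-5027900) and 5.27 (chr3:5068535-5068679) ranked 1170 and 1121 of 1204 by p. The first held TACGTG and the other an E-box, and 2 retained peaks between them had fold enrichments of 6.60 and 8.38.

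Both peaks at genes of the bHLH-PAS family, which includes the subunits of HIF and of the clock, were lost (34.2% to 100%, an interval that holds the 41.8% over all HIF2α-only distal peaks), and neither held an HRE core. The peak in ARNT, which encodes the partner of HIF2α, was the lost peak of smallest p (chr1:150818737-150818877, fold enrichment 8.13, −log10 p 41.1) and overlapped a coding exon by 45 bp. All 14 shControl HIF2α peaks in ARNT, all 13 shControl BMAL1 peaks and all 11 shBMAL1 HIF2α peaks overlapped a coding exon, which 6 of 273 lost peaks did. The peak in AHRR, a repressor of the aryl hydrocarbon receptor, had a fold enrichment of 3.13 at a −log10 p of 31.5 (chr5:344622-344789), lay 1063 bp from a start and has the repetitive sequence printed above. The part of coding exons and of repeats in these 2 calls was not tested.

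The counts in the other lists likewise stand beside 41.8% over all HIF2α-only distal peaks. TGF-β and mesenchymal genes had 4 lost of 8 peaks (21.5% to 78.5%). They lay 360156 bp from TGFB2, a ligand (fold enrichment 9.25), 47366 bp from SMAD7, an inhibitor of the pathway (7.79), and in RUNX1. The 2 peaks in RUNX1 (5.43 and 6.84) lay 482 and 1409 bp from protein-coding starts. Matrix and adhesion genes had 2 lost of 6 peaks, near COL5A1, a fibrillar collagen (7.16), and near ITGA5, a subunit of the fibronectin receptor (8.99), and both held an E-box. Of 3 peaks at AP-1 genes the lost one lay 99558 bp from JUN (4.75). At receptor and angiogenesis genes all 4 peaks, 3 at EGFR and 1 at MET, were retained. Over the 8 lists 19 of 66 peaks were lost (28.8%, 19.3% to 40.6%, beside 41.8% of all HIF2α-only distal peaks and set by the calls that chose the members), with a median −log10 p of 18.6 against 25.7 in retained peaks.

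Among the 10 lost peaks of smallest p, beside ARNT and AHRR, were peaks near OXR1 (fold enrichment 11.8), TNFRSF9 (12.6) and ZNF318 (10.7), in introns of TSPAN2 (12.2), U2SURP (11.8) and of the overlapping genes PXYLP1 and ZBTB38 (10.8), and near SOST (11.5) and DNAJB12 (9.30). The −log10 p of the 10 peaks was from 30.5 to 41.1. Those named as near a gene lay outside it. The distance to its start was 182924 bp for OXR1, 35126 bp for TNFRSF9, 14319 bp for ZNF318, 34565 bp for SOST and 23989 bp for DNAJB12. An HRE core was present in 7 of these 10, and an AP-1 site in 4, each of which also held an HRE core. Of the 12 lost peaks with an E-box, the next after ZNF318 by p lay at NDUFA4L2 (chr12:57628944-57629134, fold enrichment 6.76), a hypoxia-induced relative of a mitochondrial complex subunit, and its window also held TACGTG and AGCGTG. The other 8 of the 10 strongest had fold enrichments from 5.47 to 8.99. Those assigned to TRIO, ITPR1 and CHST9 lay in an intron of the gene. The rest lay outside the gene they were assigned to by its start. The distance was 44630 bp for COL5A1, 13320 bp for ITGA5, 137731 bp for SPACA1, 28216 bp for GRB10 and 143678 bp for ADGB.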

How the data were processed

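The authors aligned paired reads to hg19 and the yeast spike-in genome sacCer3 with Bowtie2 2.5.3, removed duplicates with SAMtools 1.6 and sambamba, called peaks with MACS2 2.2.9.1 with a threshold on p, removed blacklisted regions with bedtools 2.31.1 and deposited 1 pooled narrowPeak list per group. Whether IgG served as the control in calling is not stated. The labels call the libraries biological replicates, whereas the study's reporting form names technical ones. The deposited values are, per peak, a fold enrichment (a ratio over local background), −log10 p and a display score. The smallest −log10 p was 8.83 in the shControl HIF2α list and 8.92 in the shBMAL1 HIF2α list. The calling threshold that the study states is less strict than these values. Whether weaker calls were removed before deposit is not stated. The study gives a nominal depth per sample, but the lists hold no read counts, so the reads behind each list could not be measured or equalised here, and intervals cover counting error over peaks only.

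Here, lists were compared by overlap of 1 bp (Python 3.11.15, NumPy 2.4.6, SciPy 1.17.1, pandas 2.3.3), with the GRCh37 sequence, read with pysam 0.24.0 and samtools 1.23.1, and the GENCODE annotation lifted to it. Coordinates count from 1. Motifs were searched on both strands in 200 bp windows and shares were tested by Fisher's exact test (two-sided), Cochran-Mantel-Haenszel tests within quintiles, or permutation (100000 resamples), with Benjamini-Hochberg adjustment and a threshold of 0.05. The code was tested on simulated data. The members, motifs and gene lists were chosen with earlier results of these data known. Named peaks were the 10 lost peaks of smallest p, those at genes of the lists, up to 10 with an E-box and those nearest to each border of the rule. Sequences were printed as 200 bp windows, wider than the 101 bp first intended, so that the searched window is shown whole (none from untranslated regions). The peaks of the kidney lineage list are not reported gene by gene here.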

Additional observations from a re-analysis of the deposited data

How the results depend on the processing

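No paired analysis was possible because each list merges the libraries of a group without replicate numbers, and for the same reason no library could be left out. The alternative that leaves out repeat-masked windows was not run, because the genome sequence at hand marks no repeats. For 15 results, 169 alternatives were computed, of which 42 were chosen after seeing the data, among them all moved windows. In 143 of the 169 the result was counted as unchanged, which for differences means the same direction and call. The number of lost peaks has neither and was counted as unchanged when it stayed near its main value. GC content had a main difference of 0 and thus no direction to change, and its difference ran from -0.5 to 1. The difference in the HRE core between lost and retained peaks was no longer past the threshold in 100 bp windows (-7.69 percentage points), within quintiles of p (-8.27) and, in the moved window, at p at or under 1e-20 (-3.73), and at the summit it turned to 0.96 at p at or under 1e-20. For TACGTG it was no longer past it within quintiles of p (-9.98) and at p at or under 1e-20 (-11.4 at the summit, -14.9 in the moved window). The E-box share over flanks passed the threshold on autosomes (2.96), with overlap of 50% (2.84), at p at or under 1e-10 (3.03), with promoters of 2500 bp (3.43) and with lists of equal length (3.04).

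Differences that were not past the threshold changed sign as follows. For AP-1 the difference from shBMAL1-only peaks was -0.10 in 100 bp windows, and that from retained peaks was -0.45 in 100 bp windows, -0.80 within quintiles of p and -1.18 in moved 100 bp windows. For the E-box the difference from shBMAL1-only peaks was -0.32 and -4.21 in 100 and 400 bp windows, -2.45 in moved windows and -2.56 in these within quintiles of p, and that from retained peaks was -0.72 in 400 bp windows, -1.14 within quintiles of p, -0.56 within quintiles of width, -0.11 in moved 100 bp windows and -1.48 in moved windows within quintiles of p. The log10 distance to a start site differed by -0.039 with protein-coding starts only. The number of lost peaks was from 204 to 282 over its alternatives. The cause of these changes was not tested.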
